A study of Mus musculus with 4 samples.

Results

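The cartilage and bone lineage genes examined here are 10 genes, Sox9, Runx2, Sp7, Acan, Comp, Alpl, Spp1, Hapln1, Matn4 and Phex, of 36846 gene symbols in the deposited transcript table. They were chosen by name, and the estimated counts of all RefSeq transcripts of a symbol were summed in each library. The data are RNA-seq of mouse embryonic fibroblasts (MEFs), the mixed mesenchymal cells that grow out when a midgestation embryo is put into culture. There were 4 libraries, 2 from wild-type (WT) lines and 2 from Dnmt3l-KO lines, which lack Dnmt3l. Its protein has no catalytic activity and stimulates the enzymes that set new DNA methylation. Both genotypes were C57BL/6 lines derived from embryos of day 13.5 to 14.5 of crosses between Dnmt3l heterozygotes, were grown in DMEM with fetal bovine serum and were used at passage 4. The labels describe neither the knockout allele nor how many embryos or clones stand behind a genotype, so p-values measure only the spread between these libraries, which may be technical. The study compared the genotypes as donor cells for nuclear transfer, to look for genes that could account for better development of embryos cloned from Dnmt3l-KO cells. Each library held 40681328 to 51465395 estimated counts. Dnmt3l itself had 6 and 1 counts in WT and 0 in each Dnmt3l-KO library. A count of 0 allows up to 3 counts, so this checks the labels only weakly, and covers counting error only.

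Cartilage and bone both form from mesenchyme. SOX9 is the transcription factor that commits cells to the cartilage fate and, with SOX5 and SOX6, drives the genes of cartilage matrix. RUNX2 commits cells to the osteoblast fate with its partner CBFB, and SP7 (osterix) acts downstream of RUNX2. Cartilage matrix is built of type II collagen and of aggrecan (Acan), which is tied to hyaluronan by the link protein HAPLN1, while COMP and the matrilins connect the fibres. In bone, osteopontin (Spp1) is a secreted phosphoprotein of the mineralized matrix that many other cells also make, the alkaline phosphatase ALPL removes the mineralization inhibitor pyrophosphate, and the membrane protease PHEX takes part in phosphate balance.

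The stretches before the start sites of 3 members are shown because these genes mark the ends of what follows. Spp1 was the most abundant member, Acan had the widest gap between the Dnmt3l-KO libraries, and Alpl was nearly without counts. Each holds the 250 bases before the RefSeq start on GRCm38.p6, the assembly of mm10, written 5′ to 3′ on the gene's own strand. Capitals mark CpG dinucleotides, the bases that DNA methyltransferases act on, and the hexamer TGTGGT or its reverse complement ACCACA, a core recognized by RUNX factors. The windows lie at chr5:104434861-104435110 (plus strand), chr7:79052976-79053225 (plus strand) and chr4:137796385-137796634 (minus strand).
Spp1: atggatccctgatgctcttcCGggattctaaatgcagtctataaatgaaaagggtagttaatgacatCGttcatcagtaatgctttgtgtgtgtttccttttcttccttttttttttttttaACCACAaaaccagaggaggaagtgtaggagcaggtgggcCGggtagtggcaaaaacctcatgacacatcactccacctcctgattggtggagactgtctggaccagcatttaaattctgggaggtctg
Acan: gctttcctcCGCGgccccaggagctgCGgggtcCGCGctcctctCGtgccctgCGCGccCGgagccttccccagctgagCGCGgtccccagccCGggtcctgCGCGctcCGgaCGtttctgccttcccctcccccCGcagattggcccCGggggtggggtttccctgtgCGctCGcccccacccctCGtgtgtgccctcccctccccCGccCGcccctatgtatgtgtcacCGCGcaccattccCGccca
Alpl: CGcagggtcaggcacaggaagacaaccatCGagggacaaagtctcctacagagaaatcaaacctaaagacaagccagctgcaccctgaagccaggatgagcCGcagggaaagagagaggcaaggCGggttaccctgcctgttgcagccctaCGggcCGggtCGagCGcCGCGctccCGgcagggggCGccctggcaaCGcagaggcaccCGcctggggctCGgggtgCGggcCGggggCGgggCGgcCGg

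The Spp1 window held 3 CpGs and 1 RUNX hexamer, whose first base lay 128 bases before the start and which overlapped no other motif searched. The Acan window held 26 CpGs and the Alpl window 20, against a median of 6 over 32851 windows of the same length. The members therefore span CpG-poor and CpG-rich starts. RefSeq start windows were found for 7 of the 10 genes (10 windows), and Sox9, Sp7 and Comp had no entry. The RUNX hexamer, searched on both strands, was in 3 of the 10 windows (Spp1, Hapln1 and Runx2 itself) and in 14.0% of all windows. The hexamer ACAAAG or its complement, a core recognized by SOX factors, was in 5 member windows (both of Alpl, both of Spp1, and that of Phex) and in 16.5% of all windows. The GC box GGGCGG or its complement was in 3 member windows (Acan, 1 of Alpl and 1 of Matn4) and in 32.7% of all windows. Overlapping copies of the GC box occurred in the Acan and Alpl windows. Where the start table gives an inner start, as for Runx2 and Hapln1, the window reaches into the gene.

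The 10 genes fell into 4 levels when compared per transcript length, as FPKM (fragments scaled to transcript length and to library depth). Spp1 stood alone at 115.9 to 298.4 FPKM and ranked 288th by mean FPKM of the 21138 genes with a count. Runx2, at 6.37 to 8.72 FPKM, and Sox9, at 4.93 to 8.94 FPKM, followed. Their ranges overlapped, with Runx2 above Sox9 in every library but Dnmt3l-KO replicate 2. Comp (0.739 to 2.90 FPKM), Acan (0.434 to 2.38), Hapln1 (0.426 to 2.02) and Sp7 (0.328 to 1.02) overlapped one another and lay below Runx2 and Sox9 in all libraries. Matn4 (0.0520 to 0.158 FPKM), Phex (0.0536 to 0.0928) and Alpl (0.0127 to 0.0667) formed the lowest level and overlapped one another. At least 69.6% of the genes with a count had a higher mean FPKM than each of these 3. Each of 12 markers of fibroblasts, the labelled cell type, had a mean above 1 FPKM, up to vimentin (Vim) at 1894 to 2306 FPKM. Lum was the lowest of them, at 0.492 FPKM in WT replicate 1 and 0.188 FPKM in Dnmt3l-KO replicate 1. A mean above 1 FPKM does not by itself identify a cell type, as some markers of other cell types, such as Lyz2 and Acta1, also reached it.

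**Figure D1:**
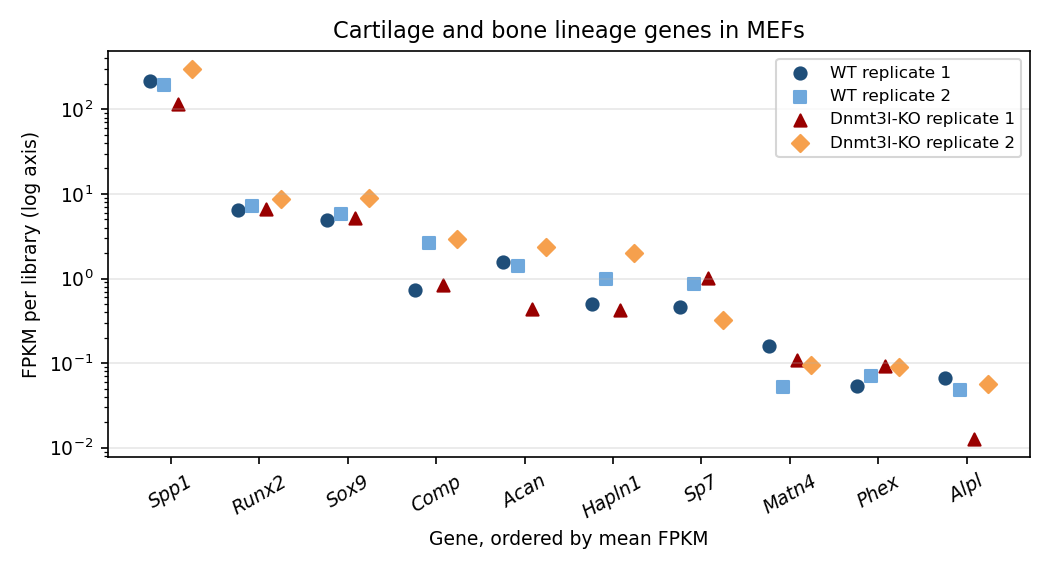
FPKM of the 10 genes in each of the 4 libraries on a log axis, 1 point per library, genes ordered by mean FPKM. Spp1 stands above 100 FPKM, Runx2 and Sox9 between 4.93 and 8.94 FPKM, and Matn4, Phex and Alpl below 0.2 FPKM in every library.

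Sox9 (chromosome 11, 112782210 to 112787757), the cartilage regulator, was measured at 23.8 and 25.7 CPM (counts scaled to TMM-adjusted library size) in WT replicates 1 and 2 and at 23.5 and 39.2 CPM in Dnmt3l-KO replicates 1 and 2. The 2 WT libraries and Dnmt3l-KO replicate 1 were close together, and Dnmt3l-KO replicate 2 stood above them. The log2 fold change, Dnmt3l-KO minus WT, was 0.34 ± 0.26 (SE, 95% interval -0.32 to 1.0; edgeR's quasi-likelihood test, adjusted p = 0.999). Runx2 (chromosome 17, 44495987 to 44814797), the osteoblast regulator, had 41.8 and 43.7 CPM in WT and 41.4 and 52.5 CPM in Dnmt3l-KO. It was the steadiest member, with a log2 fold change of 0.14 ± 0.14 (SE, interval -0.23 to 0.50; edgeR, adjusted p = 0.999). Sp7 (chromosome 15, 102356603 to 102367035), the factor downstream of RUNX2, went the other way between the Dnmt3l-KO libraries. It had 1.68 and 2.88 CPM in WT and 3.49 and 1.10 CPM in Dnmt3l-KO (79, 120, 174 and 46 counts), so the Dnmt3l-KO libraries enclosed the WT pair. The only Sp7 transcript that is not a predicted variant held 0 counts in every library. Predicted variant X3 held 86.1%, 70.8%, 86.2% and 37.0% of the gene's counts, libraries in the same order. Sp7 was therefore measured through predicted variants alone. Its log2 fold change was 0.02 ± 0.61 (SE, interval -1.57 to 1.61; edgeR, adjusted p = 0.999).

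Runx2 is transcribed from a distal and a proximal promoter, whose proteins differ at the amino end. The table lists 21 Runx2 transcripts, of which 8 matched GENCODE M21 transcripts with a start. Of these, 4 begin at the distal start (the upstream end of the gene, on chromosome 17, position 44814797, minus strand) and 4 at proximal starts (44736648, 44736176 and 44735710). Transcripts from the distal start held 809 and 762 counts in WT against 1104 and 868 in Dnmt3l-KO, and those from the proximal starts held 712 and 720 counts in WT against 657 and 919 in Dnmt3l-KO. Both promoters were therefore represented in all 4 libraries. The distal share of all Runx2 counts was 41.1% and 41.8% in WT, 53.4% in Dnmt3l-KO replicate 1 and 39.5% in Dnmt3l-KO replicate 2. That total includes the 13 transcripts not matched to a start. They held 22.8% and 18.8% in WT and 14.8% and 18.6% in Dnmt3l-KO, lowest in Dnmt3l-KO replicate 1. The transcript with the most counts in all but Dnmt3l-KO replicate 1, at 652, 554, 428 and 632, was variant 7, a non-coding transcript from the distal start.

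Variant 3 of Runx2, which codes for protein from the distal start, was the member transcript with the smallest p. It had 24 and 76 counts in WT against 537 and 166 in Dnmt3l-KO, or 1.22% and 4.17% against 26.0% and 7.56% of the gene's counts. Both Dnmt3l-KO libraries lay above both WT libraries, as for 16.5% of all transcripts tested, and the log2 fold change was 2.67 ± 0.86 (SE; edgeR on transcripts, unadjusted p = 0.0294, adjusted p = 1). The predicted variant X7 of Runx2 went the other way, with 17 counts in each WT library, 2 in Dnmt3l-KO replicate 1 and 0 in replicate 2 (edgeR on transcripts, unadjusted p = 0.0602, adjusted p = 1). In the authors' deposited table, variant 3 had a log2 fold change of 1.16 with a standard error of 0.355 and an adjusted p of 0.147. The sizes from edgeR and from the authors come from different fits and are not directly comparable. Of the 26 member transcripts tested by edgeR, 0 passed and 1 had an unadjusted p under 0.05. Over all 39633 transcripts tested, 0.00252% passed and 4.12% had an unadjusted p under 0.05. DESeq2's Wald test called 0 of 24, at a background of 0.555%. The authors' deposited table gives none below 0.05: 0 of the 17 member transcripts with an adjusted p, against 0.441% of all transcripts with one. RefSeq transcripts of a gene share most of their sequence, so these counts are estimates of how shared reads divide. Runx2 also overlaps Supt3 and 3 antisense RNAs on the other strand, and the sources used here do not say whether strand was used in counting. Supt3 had a mean of 4.23 FPKM in WT and 4.65 FPKM in Dnmt3l-KO.

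**Figure D2:**
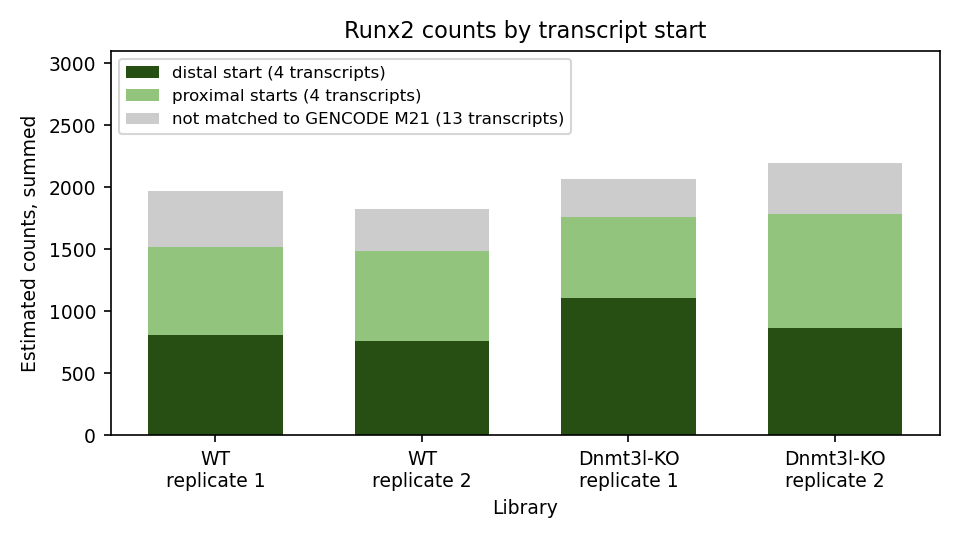
Estimated Runx2 counts per library, stacked by the start of the transcripts they were assigned to (distal start, proximal starts, or transcripts not matched to GENCODE M21). The distal part was highest in Dnmt3l-KO replicate 1, at 1104 counts, and the proximal part in Dnmt3l-KO replicate 2, at 919 counts.

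Among the genes of cartilage matrix, Acan (chromosome 7, 79053226 to 79115099), the core protein of the large proteoglycan aggrecan, varied most. It had 13.6 and 11.3 CPM in WT, 3.65 CPM in Dnmt3l-KO replicate 1 and 18.8 CPM in Dnmt3l-KO replicate 2. Its Dnmt3l-KO libraries differed 5.15-fold and lay on either side of the WT pair. The log2 fold change between the genotypes was -0.16 ± 0.73 (SE, interval -2.04 to 1.73; edgeR, adjusted p = 0.999). The RefSeq aggrecan transcript held 75.3% and 58.9% of the gene's counts in WT, 29.7% in Dnmt3l-KO replicate 1 and 71.0% in Dnmt3l-KO replicate 2, and the remainder was assigned to the predicted variant X1. Counts of that RefSeq transcript were 481 and 278 in WT and 54 and 557 in Dnmt3l-KO, while variant X1 ranged only from 128 to 228 counts.

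Hapln1 (chromosome 13, 89540529 to 89611832), the link protein that fastens aggrecan to hyaluronan, had 2.95 and 5.32 CPM in WT and 2.36 and 10.7 CPM in Dnmt3l-KO. Dnmt3l-KO replicate 1 was the lowest library and replicate 2 the highest, as for Acan. Its log2 fold change, 0.66 ± 0.74 (SE, interval -1.27 to 2.58; edgeR, adjusted p = 0.999), was the largest among the members in size in this fit, but was 0.29 in limma-voom, below Phex and Acan in size. Comp (chromosome 8, 70373548 to 70382066), a pentameric glycoprotein that binds collagen fibrils, separated replicate numbers and not genotypes. The first replicates had 2.10 CPM (WT) and 2.24 CPM (Dnmt3l-KO), and the second replicates 6.85 and 7.51 CPM. The 3.26-fold gap between its WT libraries was about as wide as the 3.35-fold gap between its Dnmt3l-KO libraries, and the log2 fold change was 0.12 ± 0.78 (SE, interval -1.89 to 2.13; edgeR, adjusted p = 0.999). Matn4 (chromosome 2, 164389393 to 164405160), a matrilin that forms filaments around cells, was scarce, with 21 and 6 counts in WT against 15 and 10 in Dnmt3l-KO. Its Dnmt3l-KO libraries lay within the WT range, with a log2 fold change of -0.14 ± 0.66 (SE, interval -1.84 to 1.57; edgeR, adjusted p = 0.999). Matn4 overlaps Rbpjl on the opposite strand, which had 0 counts in every library.

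Among the genes of bone matrix and mineral, Spp1 (chromosome 5, 104435111 to 104441053) had 364.6 and 296.1 CPM in WT, 183.2 CPM in Dnmt3l-KO replicate 1 and 452 CPM in Dnmt3l-KO replicate 2. As for Acan, the Dnmt3l-KO libraries enclosed the WT pair, with a 2.47-fold gap between them. The log2 fold change was -0.057 ± 0.43 (SE, interval -1.17 to 1.06; edgeR, adjusted p = 0.999). One transcript, variant 4, carried 90.7% to 93.8% of the Spp1 counts in every library. It starts near the window printed above, at position 104435118 in GENCODE M21, while variant 5, which starts at the inner position 104436192, held 30 to 74 counts. The Spp1 counts therefore came almost wholly from the outer start.

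Alpl (chromosome 4, 137741731 to 137796384), the phosphatase that is a standard marker of osteoblasts, had 8 and 6 counts in WT against 0 and 7 in Dnmt3l-KO, summed over 8 transcripts. The library with 0 counts had a summed FPKM of 0.0127, and 0 allows up to 3 counts. Alpl did not pass the expression filter and was not tested. Phex (chromosome X, 157162075 to 157415286), an X-linked gene of osteoblasts and osteocytes, had 18 and 19 counts in WT against 32 and 25 in Dnmt3l-KO. It was the only tested member with both Dnmt3l-KO libraries above both WT libraries (0.382 and 0.455 against 0.641 and 0.598 CPM), a state that 16.2% of all genes tested shared. Its log2 fold change was 0.57 ± 0.39 (SE, interval -0.42 to 1.55; edgeR, adjusted p = 0.999).

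In the comparison of Dnmt3l-KO with WT, 0 of the 9 members tested passed in edgeR, and 0 had an unadjusted p under 0.05. Over all 14760 genes tested, edgeR called 3 genes, or 0.0203%, and 4.15% had an unadjusted p under 0.05. DESeq2's Wald test called 0 of 10 members (background 0.166%), limma-voom 0 of 9 (0.0203%) and limma on log2(FPKM + 1) values 0 of 9 (0.0407%). Of the 9 members, 6 had a positive log2 fold change and 3 a negative one, with a median of 0.12 against 0.006 over all genes tested. Genotype groups without overlap were seen in 1 of 9 members and in 32.8% of all genes tested. For all tested members but Runx2, the interval includes a change of 1 log2 unit in at least 1 direction, so a change of that size is not excluded by it.

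**Figure D3:**
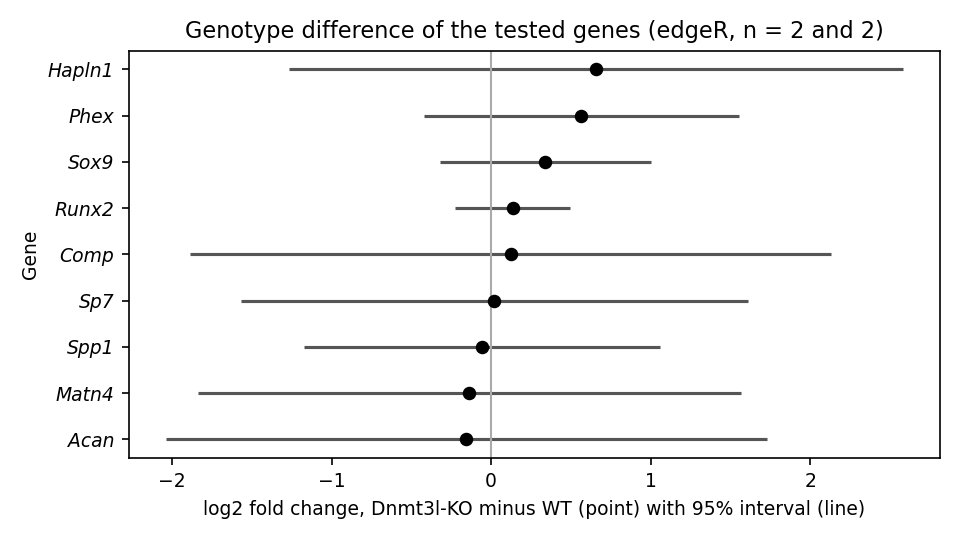
Log2 fold change, Dnmt3l-KO minus WT, of the 9 genes tested (points), with 95% intervals from edgeR's quasi-likelihood fit (lines). Every interval crosses 0, and the interval of Runx2, from -0.23 to 0.50, is the shortest.

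The members differed more between the Dnmt3l-KO libraries than between the genotypes. In 5 of the 9 (Sox9, Runx2, Acan, Spp1 and Hapln1), Dnmt3l-KO replicate 1 lay below both WT libraries and replicate 2 above both, which held for 14.0% of all genes tested. Sp7 showed the reverse order, as did 13.6% of all genes tested. For Sox9 and Runx2 the step below WT was slight. Dnmt3l-KO replicate 1 had 23.5 CPM of Sox9 and 41.4 CPM of Runx2, against 23.8 and 41.8 CPM in WT replicate 1. The median absolute log2 difference between the Dnmt3l-KO libraries was 1.30 over the members and 0.22 over all genes tested, and between the WT libraries it was 0.30 and 0.13. In 8 of the 9 the gap between the Dnmt3l-KO libraries exceeded the genotype difference (67.3% of all genes tested), with Phex as the exception. For all tested members but Phex, the sign of the fold change turned on which Dnmt3l-KO library was kept. For Sox9, Runx2 and Matn4, however, the value without replicate 2 was small. The log2 fold change of Matn4 was -0.32 without replicate 1 and 0.005 without replicate 2, and that of Comp was 0.75 and -0.99. Without replicate 1, in a fit that assumes the lone Dnmt3l-KO library to vary like WT, the log2 fold change was 0.66 for Sox9, 0.30 for Runx2, 0.59 for Acan, 0.45 for Spp1, 1.38 for Hapln1 and -1.04 for Sp7. Without replicate 2 it was -0.077 for Sox9, -0.047 for Runx2, -1.77 for Acan, -0.85 for Spp1, -0.80 for Hapln1 and 0.62 for Sp7. No member passed in either fit, with smallest adjusted p-values of 0.283 and 0.212 (edgeR), although 5 and 2 of the 9 members had an unadjusted p under 0.05, against 12.1% and 13.5% of all genes in the same fits.

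**Figure D4:**
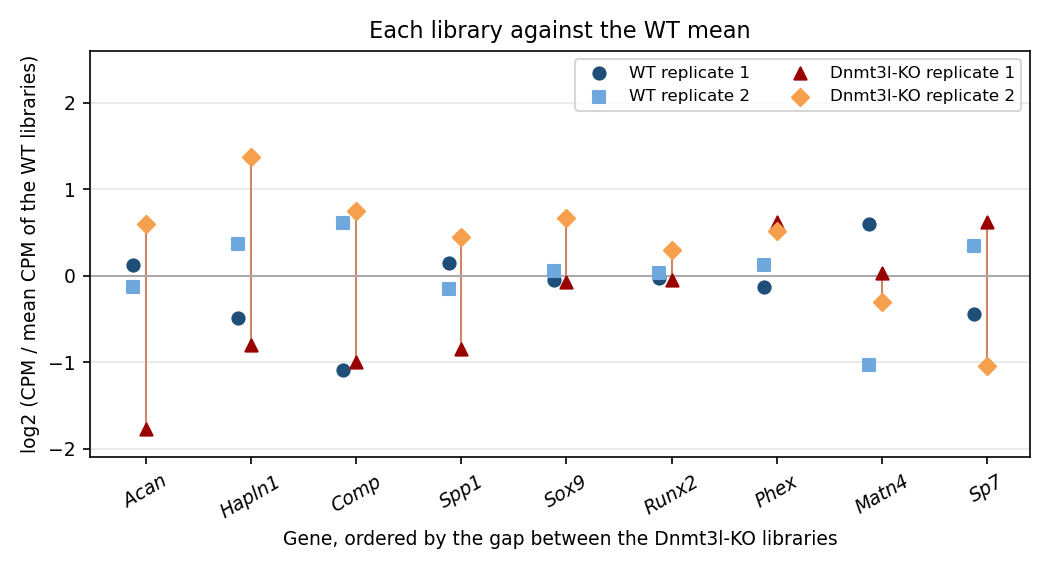
Each library's CPM against the mean of the WT libraries on a log2 scale, for the 9 genes tested, ordered by the signed gap between the Dnmt3l-KO libraries (joined by a line). Dnmt3l-KO replicate 1 lies below and replicate 2 above the WT libraries for Acan, Hapln1, Spp1, Sox9 and Runx2, and the order is turned round for Sp7. For Sox9 and Runx2, Dnmt3l-KO replicate 1 lies only just below WT replicate 1.

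Most fibroblast markers moved with this split. Of 12 markers, 9 were lowest in Dnmt3l-KO replicate 1 and highest in replicate 2, against 14.0% of all genes tested. Vim, Fn1 and Prrx1 did not follow it. Vim had 4045 and 4326 CPM in WT and 4667 and 4356 CPM in Dnmt3l-KO, and Fn1 had 7316, 5570, 7826 and 7865 CPM in the same order. Col3a1, a fibrillar collagen, had 471.3 and 368.1 CPM in WT and 190.2 and 894.6 CPM in Dnmt3l-KO. Pdgfra, a receptor of mesenchymal progenitors, had 23.4 and 38.6 CPM in WT and 17.2 and 65.4 CPM in Dnmt3l-KO, and the small proteoglycan Lum had 1.19, 2.54, 0.421 and 9.38 CPM in the same order. The summed level of the fibroblast markers was 4241 and 4245 FPKM in WT and 4366 and 5515 FPKM in Dnmt3l-KO. Kdr, a receptor of endothelial cells, went the other way, with 1.06 and 1.44 FPKM in WT and 2.90 and 0.831 FPKM in Dnmt3l-KO. Acta1, the skeletal alpha-actin, was higher in replicate 1 of both genotypes, at 152.6 and 102.2 FPKM in WT and 142.9 and 75.1 FPKM in Dnmt3l-KO. The part of these shifts in the members' values was not tested. In bulk RNA, fewer cells of a type and less RNA per cell cannot be told apart.

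Markers of most other cell types were low, apart from skeletal muscle and neural ones. Macrophage markers, of which Lyz2 was the highest, summed to 6.84 to 9.61 FPKM over 10 genes, with Aif1 at 0 counts in all libraries. The sum was 9.61 FPKM in Dnmt3l-KO replicate 1, where Spp1 was lowest, and a link between these values was not tested. Osteoclast markers summed to 0.763 to 1.60 FPKM over 7 genes, most of it Acp5, with Dcstamp at 0 counts. Germ cell markers summed to at most 0.238 FPKM over 5 genes, of which Ddx4 was the highest and Dppa3 had 0 counts. The 7 skeletal muscle markers summed to 80.6 to 157.9 FPKM, almost all of it Acta1, and 3 did not exceed 3 counts in any library. Epithelial markers summed to 2.50 to 4.58 FPKM over 6 genes, led by Krt18, with Krt5 and Krt14 at 0 counts, endothelial markers to 1.44 to 4.15 FPKM over 5 genes, led by Kdr, and neural markers to 20.5 to 29.5 FPKM over 5 genes, led by Tubb3, with Olig2 at 0 counts.

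The other genes of cartilage held a partial set. Col2a1, the defining collagen of cartilage, had 35.2 and 45.9 FPKM in WT and 39.8 and 52.3 FPKM in Dnmt3l-KO. Col10a1, the collagen of hypertrophic chondrocytes, had 18.3 and 37.0 FPKM in WT and 14.7 and 35.6 FPKM in Dnmt3l-KO, and like Comp it separated replicate numbers and not genotypes. Col10a1 lies within Nt5dc1 on the other strand, which had means of 3.26 FPKM in WT and 3.0 FPKM in Dnmt3l-KO. Of the 24 matrix partners, 6 had a mean of at least 1 FPKM. Col11a1, a collagen that joins type II collagen in fibrils and was chosen after its values were seen, was among them at 32.7 and 28.7 FPKM in WT and 22.9 and 42.8 FPKM in Dnmt3l-KO. Other products of cartilage were scarce: Col9a1 had 2 to 15 counts, Matn1 at most 1 count, and Ucma and Lect1 (chondromodulin) 0 counts in every library. Of 8 markers of mature chondrocytes, 2 (Col2a1 and Col10a1) had a mean of at least 1 FPKM, and the sum was 54.2 to 88.9 FPKM. Among the partners of SOX9, Sox5 had 0.692 and 1.02 FPKM in WT and 0.601 and 1.44 FPKM in Dnmt3l-KO, and Sox6 had 1.30, 2.0, 1.67 and 2.24 FPKM in the same order.

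Of 46 cartilage partners, 35 were tested and 0 passed in either direction in edgeR. The number at an unadjusted p under 0.05 was 0, and DESeq2 called 0. Their median log2 fold change was 0.036, with 22 positive and 13 negative. The smallest p-values belonged to Pax1, a regulator of the sclerotome, at 1.06 and 1.08 CPM in WT and 2.93 and 1.39 CPM in Dnmt3l-KO, to the homeobox gene Barx1 (1.42 and 0.983 against 0.381 and 0.813 CPM), to Arid5b (192.9 and 199 against 159.7 and 185.6 CPM) and to Hapln3 (1.30 and 1.10 against 1.88 and 1.44 CPM). In these 4 genes the genotype groups did not overlap, but each had an adjusted p of 0.999 in edgeR. Groups without overlap were seen in 7 of the 35 (20.0%), against 32.8% of all genes tested. In 14 of the 35 (40.0%) Dnmt3l-KO replicate 1 was the lowest and replicate 2 the highest library, against 14.0% of all genes tested. The reverse held in 1 (2.86%), against 13.6% of all genes tested.

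The other genes of bone showed regulators and general matrix but hardly any late osteoblast product. Cbfb, the partner of RUNX2, was steady at 28.3 and 32.9 FPKM in WT and 30.5 and 33.4 FPKM in Dnmt3l-KO (log2 fold change 0.032 ± 0.089, SE; edgeR, adjusted p = 0.999). The homeobox factors Msx2 and Dlx5 were highest in Dnmt3l-KO replicate 1, as Sp7 was: Msx2 had 13.6 and 19.0 CPM in WT and 21.1 and 12.7 CPM in Dnmt3l-KO, and Dlx5 had 59 and 34 counts in WT against 83 and 34 in Dnmt3l-KO. Sparc (osteonectin), a collagen-binding matrix protein, was abundant at 665.1 and 633.6 FPKM in WT and 728.6 and 830 FPKM in Dnmt3l-KO. Most late products were near 0. The 7 osteoblast markers summed to 618.1 to 1184 FPKM, but only Col1a1, also a fibroblast marker, had a mean of at least 1 FPKM. Phospho1, on the same list, had 0.698 to 1.18 FPKM. Bone sialoprotein (Ibsp) had 1 to 7 counts, Dmp1 at most 2, and the hormone Fgf23 at most 1, while Mepe and Dspp had 0 in every library.

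Some regulators of mineral were abundant, up to Mgp at 272.3 to 619.5 FPKM, which was above the mean FPKM of Spp1. Others given above, among them Alpl, Phex, Dmp1, Fgf23 and Mepe, were scarce or had no counts. Enpp1, which makes pyrophosphate, had 23.3 and 26.0 CPM in WT and 16.7 and 35.8 CPM in Dnmt3l-KO. Ank, which exports it, had 117.3 and 107.1 CPM in WT and 127.3 and 91.3 CPM in Dnmt3l-KO. Mgp, an inhibitor of calcification, had 279 and 330.8 CPM in WT and 184.5 and 402.4 CPM in Dnmt3l-KO, and Tnfrsf11b (osteoprotegerin), a decoy receptor that restrains osteoclasts, had 67.0, 70.4, 82.4 and 53.5 CPM in that order. In Enpp1 and Mgp, as in Acan and Spp1, Dnmt3l-KO replicate 1 lay below both WT libraries and replicate 2 above both. Ank and Tnfrsf11b had the reverse order, as Sp7 did. The order within the WT pair differed between Enpp1 or Mgp and Acan or Spp1, and between Ank and Sp7. Of the 33 bone partners tested, 12 (36.4%) had Dnmt3l-KO replicate 1 lowest and replicate 2 highest, against 14.0% of all genes tested. The reverse held in 6 (18.2%), against 13.6% of all genes tested. Col1a1, Col1a2 and Twist1, among those 12, are also fibroblast markers, so the counts for the 2 lists are not separate. Of 44 bone partners, 33 were tested and 0 passed in edgeR. None (0) had an unadjusted p under 0.05, and DESeq2 called 0. The median log2 fold change was 0.055, with 22 positive and 11 negative. The smallest p-values were those of Ifitm5, Slc20a1, Lox and Sparc, each with groups that did not overlap and an adjusted p of 0.999 in edgeR. Ifitm5, a membrane protein of osteoblasts, had 12 and 10 counts in WT against 6 and 5 in Dnmt3l-KO. The phosphate transporter Slc20a1 had 173.1 and 151.1 against 144.7 and 138 CPM. The collagen crosslinking enzyme Lox had 1737 and 1763 against 1935 and 2114 CPM. Groups without overlap were seen in 6 of the 33 (18.2%), against 32.8% of all genes tested.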

How the data were processed

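RNA depleted of ribosomal RNA was primed with random primers, per the labels' protocols. The submitters' processing notes name mm10, DESeq2 1.8.0, eXpress 1.4.1, Cufflinks 2.2.1 and TopHat2 2.0.12, without their roles. The deposited table gives, per the file headers, for each of 116415 RefSeq transcripts an estimated count (a whole number) and an FPKM value per library. It also gives the authors' own comparison: the mean signal, the test score, p-values before and after adjustment, and the log2 fold change and its error, per the file headers.

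Counts were summed over the transcripts of a symbol. Library totals ranged from 40681328 to 51465395. The main test was edgeR 4.0.16 (R 4.3.3; quasi-likelihood, robust, TMM normalization, expression filter by group) on all 14760 genes that passed, with Benjamini-Hochberg adjustment over them and a threshold of 0.05. Standard errors and 95% intervals were derived from the F statistic. Transcripts were tested the same way. Alternatives were DESeq2 1.42.0, limma 3.58.1 (voom, and log2 FPKM with pseudocounts of 1 and 0.1), other normalizations and filters, a replicate block and leaving out each library. The tests were checked on simulated counts. Positions come from RefSeq (GRCm38.p6) and GENCODE M21. The members and lists were chosen with earlier results of these data known. Beyond the members, the text names genes fixed by role, the 4 partners per list with the smallest p and the most abundant marker of each cell type; other names, such as Col3a1, Pdgfra and Lum, were chosen after their values were seen.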

Additional observations from a re-analysis of the deposited data

How the results depend on the processing

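No alternative changed a call among the members, their transcripts or the partner lists: 0 passed in each setting run. The count over the whole table, 3 in edgeR, was 31 in DESeq2, 8 in edgeR with no filter and 6 in limma on log2 FPKM with either pseudocount, and 2 to 7 with a library left out. Fold changes near 0 changed sign. That of Sp7 (0.02) was -0.097 in limma-voom, -0.013 and -0.091 on log2 FPKM with pseudocounts of 1 and 0.1, and -0.12 with the replicate block. That of Matn4 (-0.14) was 0.048 in limma-voom and 0.019 on log2(FPKM + 0.1). Sizes of other members moved by over 1.5 times: in limma-voom and with the replicate block, Acan (-0.16) was -0.67 and -0.54, Spp1 (-0.057) was -0.19 in both, and Hapln1 (0.66) was 0.29 and 0.38. On log2(FPKM + 1), Phex (0.57) was 0.040. The cause was not tested. With each library left out in turn, log2 fold changes ran from -0.077 to 0.66 for Sox9, -0.047 to 0.30 for Runx2, -1.04 to 0.62 for Sp7, -1.77 to 0.59 for Acan, -0.99 to 1.21 for Comp, -0.85 to 0.45 for Spp1, -0.80 to 1.38 for Hapln1 and -0.72 to 0.90 for Matn4. Phex stayed positive in all settings run. Same-numbered libraries deviated together with a correlation of 0.1 across 14760 genes, which does not settle whether they were paired. With the replicate block, edgeR called 4 genes over the whole table and 0 members. Matn4, Phex and Alpl had at most 32 counts in any library, which limits their precision.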

Other observations

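Prg4, the lubricin of synovial fluid, had 5.54 CPM in WT replicate 1 and 14.3 CPM in WT replicate 2, and 6.23 and 23.8 CPM in the Dnmt3l-KO libraries. Gdf5, a growth factor of joint formation, had 2.36 and 5.20 CPM in WT and 1.08 and 5.84 CPM in Dnmt3l-KO. In both genes replicate 2 was the higher library of each genotype, as in Comp and Col10a1, and the genotype groups overlapped. Prg4 and Gdf5 were chosen after their values were seen.

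Among the osteocalcin copies, Bglap had 0 counts in both WT libraries and 6 in each Dnmt3l-KO library, while Bglap2 had 13 and 5 counts in WT and 0 in both Dnmt3l-KO libraries. Bglap3 had 3 and 0 counts in WT against 2 and 0 in Dnmt3l-KO, with overlapping groups. The copies are closely related, so their separate counts are uncertain, and none of the 3 was tested.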
